A study of Mus musculus with 78 samples.

Results

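MERVL is an endogenous retrovirus of the mouse genome, present in many copies that differ by few bases. RepeatMasker, the program that marks repeats in the genome, names its internal part MERVL-int and the long terminal repeat (LTR) on either side of it MT2_Mm. The LTR holds the promoter, and many MT2_Mm copies stand alone in the genome with no internal part beside them. MERVL is known for a burst of transcription in the late 2-cell embryo, when the embryo's own genome is switched on, and for its shutdown by chromatin silencing in the divisions that follow. MT2_Mm copies can also act as alternative promoters or as parts of the exons of nearby genes.

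The copies described here are the entries of the repeat tables of Rainbow-seq embryos whose name is MERVL-int or MT2_Mm. Each entry was counted as 1 copy and is given with its chromosome. The 4-cell table listed 1233 MERVL-int and 1518 MT2_Mm copies among 278683 repeat copies, and the 8-cell one held 1102 and 1182 among 327627. Over both tables there were 1254 MERVL-int and 1565 MT2_Mm copies. A copy missing from a table was taken as not above 0 there.

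Rainbow-seq reads the transcriptome of single blastomeres together with a fluorescent marker of their descent. All embryos came from a cross of mice with CAG-Brainbow2.1 at the ROSA26 locus and mice with CAG-cre/Esr1*, a tamoxifen-inducible Cre recombinase driven by the ubiquitous CAG promoter. They therefore carried 1 copy of each transgene and were exposed briefly to 4-hydroxytamoxifen at the 2-cell stage, and no untreated embryos were analysed here. The labels give 36 blastomeres from 9 embryos at the 4-cell stage and 31 from 4 embryos at the 8-cell stage, and the tables hold 24 and 26 columns, as many as the blastomeres with a resolved lineage. The column names do not say which embryo or lineage a blastomere came from, so each stage counted as 1 sample, no test between stages was run, and blastomeres are given by their column names as lowest, median and highest.

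Values were read as FPKM, that is fragments per kilobase of the copy and per 1000000 fragments, written M below. The values allowed the number of fragments behind them and the length of each copy to be worked out, and fragments per M are used where copies are added up. The depth was 6.87 to 16.9 M fragments per blastomere at the 4-cell stage, with a median of 13.4 M, and 2.34 to 21.7 M at the 8-cell stage, with a median of 17.2 M. The shallowest 8-cell blastomere, S57, stood apart with 2.34 M. The 4-cell blastomeres S18 and S20 also stood apart, with 3009 and 3699 genes above FPKM 1 against a median of 7155 at their stage. Dppa3, a maternal factor of the early embryo, was above FPKM 1 in every blastomere of both stages. Of the 9 blastomere markers looked at, 2 were so in every 4-cell and 5 in every 8-cell blastomere, and the fewest in 1 blastomere were 3 and 5. Of 7 cumulus and granulosa cell markers, the follicle cells around the oocyte, only Amhr2 was above FPKM 1 in any blastomere. It was between 9.03 and 104 at the 4-cell and between 3.65 and 111 at the 8-cell stage. Has2 did not exceed 0.0279, and the other 5 were not listed. The part of Amhr2 in the MERVL values was not tested. Of 4 sperm markers, Prm1 and Prm2 were above FPKM 1 in 2 blastomeres each at the 4-cell stage and in 1 and 2 at the 8-cell stage, and the other 2 were not listed.

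The number of MERVL-int and MT2_Mm copies above 0 had a lower median at the 8-cell stage, although that stage was sequenced more deeply. Many rested on 1 fragment, a median of 21.4% and 40.8% of the MERVL-int copies above 0 and 42.9% and 47.1% of the MT2_Mm copies at the 4-cell and the 8-cell stage. A 4-cell blastomere had 333 to 1109 MERVL-int copies above 0, with a median of 789. An 8-cell blastomere had 42 to 819, with a median of 590. The ranges overlapped, and 11 of the 24 4-cell blastomeres lay above the highest 8-cell blastomere. The lowest 8-cell value was that of the shallow S57, and the next was 150 in S50, which had 15.7 M fragments.

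In the number of copies above 0, the LTR differed more between the stages than the internal part, while the order was the reverse in fragments per M, given further on, and in copies above FPKM 1. Above FPKM 1 the medians were 41.5 and 14 MERVL-int copies, a ratio of 2.96, and 124 and 67 MT2_Mm copies, and the MERVL-int ratio above FPKM 0.1 was 4.22. A 4-cell blastomere had 207 to 913 MT2_Mm copies above 0, with a median of 416.5, and an 8-cell blastomere 40 to 446, with a median of 203. Of the 24 4-cell blastomeres, 12 were above the highest 8-cell blastomere, which was a deep one, NA_e, with 21.7 M fragments. Per M fragments the medians were 33.9 and 12.8 MT2_Mm copies, and 21 of the 24 4-cell blastomeres lay above all 8-cell ones. MERVL-int copies per M had medians of 58.9 and 32.8. With each blastomere thinned to 6.87 M fragments and S57 left out, the expected medians were 689 and 377 MERVL-int copies and 333 and 139 MT2_Mm copies. After thinning, 16 of 24 4-cell blastomeres were above every 8-cell blastomere for MT2_Mm and 13 for MERVL-int.

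**Figure D1:**
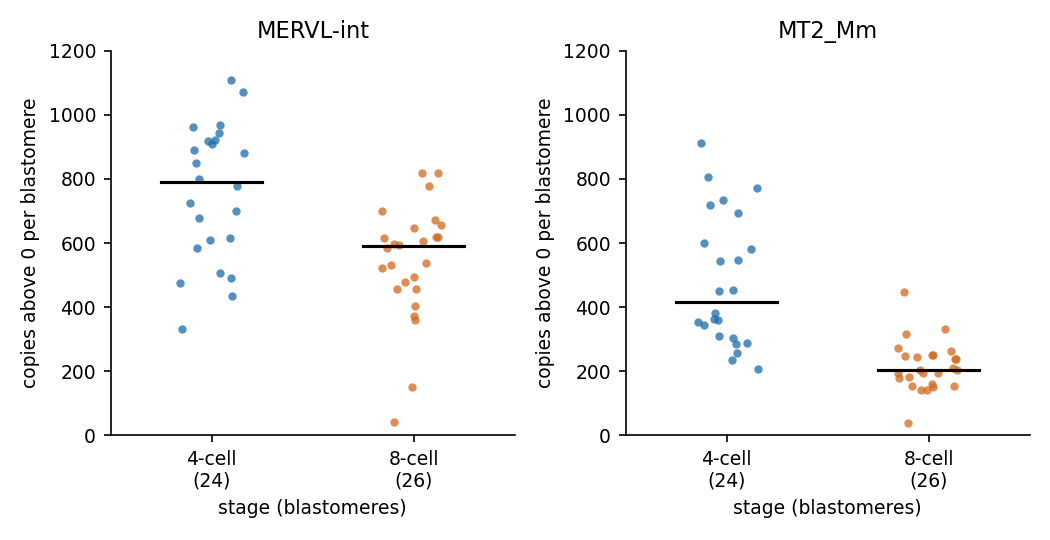
Copies above 0 in each blastomere, MERVL-int on the left and MT2_Mm on the right, by stage on the horizontal axis. Each point is 1 blastomere (24 at the 4-cell stage and 26 at the 8-cell stage) and the black line is the median, which is 789 and 590 for MERVL-int and 416.5 and 203 for MT2_Mm.

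The medians had the same order relative to all repeat copies above 0 in the blastomere, whose medians were close, 36838 at the 4-cell stage and 36262 at the 8-cell stage. MERVL-int made up 0.978% to 4.81% of them at the 4-cell stage, with a median of 1.85%, and 0.438% to 2.79% at the 8-cell stage, with a median of 1.48%. The ratio of these medians, 1.25, was 3.26 when copies above FPKM 0.1 were counted and 1.89 above FPKM 1. MT2_Mm made up 0.647% to 3.62%, with a median of 0.944%, and then 0.354% to 1.11%, with a median of 0.579%. Most blastomeres of both stages shared the same range of MERVL-int shares, with 3 4-cell blastomeres above all 8-cell ones. For MT2_Mm there were 10. The 3 MERVL-int shares above all 8-cell ones were those of S20, S18 and S4, and without S18 and S20 the 4-cell medians were 1.76% and 0.922%.

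Groups of related repeats did not share 1 direction. The older LTRs MT2A, MT2B and MT2C of the same ERVL group had medians of 1.13% and 0.985%, and the MT-type LTRs of the MaLR group, which are abundant in oocyte RNA, had 5.95% and 4.79%. The intracisternal A particle (IAP) copies, another group of retroviral elements, had 2.78% and 5.54%, so that their higher median was at the 8-cell stage.

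**Figure D2:**
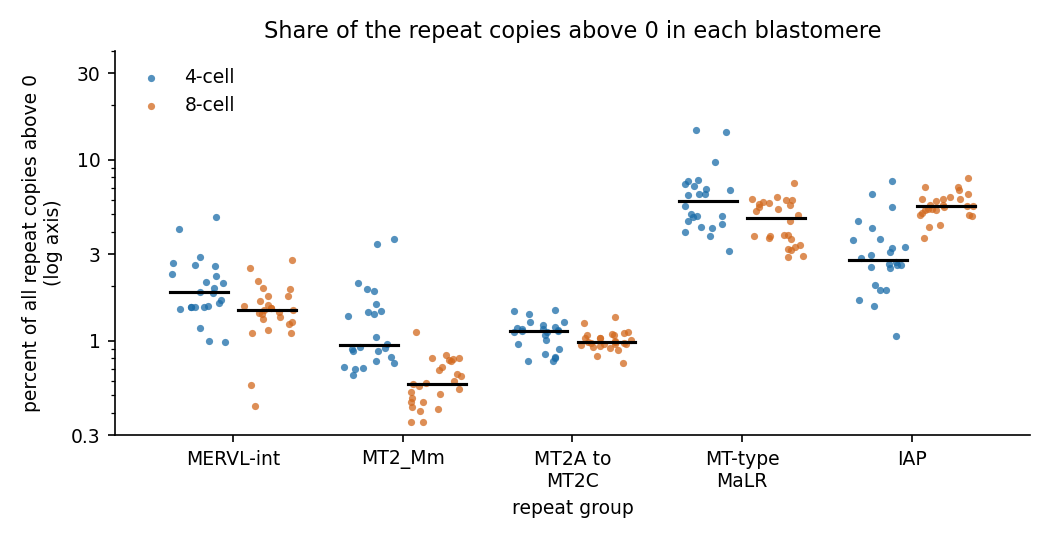
Percent of all repeat copies above 0 in a blastomere that belong to each repeat group, on a log axis. Each point is 1 blastomere, blue at the 4-cell and orange at the 8-cell stage, with the median as a black line, 0.944% and 0.579% for MT2_Mm against 2.78% and 5.54% for IAP.

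Summed over copies, fragments differed between the stages more for the internal part than for the LTR. MERVL-int took 157 to 8281 fragments per M at the 4-cell stage, with a median of 896, and 74.0 to 756 at the 8-cell stage, with a median of 374. Of the 4-cell blastomeres, 13 exceeded every 8-cell blastomere. The ratio of the medians was 2.40, and 1.55 among the 17 4-cell and 6 8-cell blastomeres of 12 to 16 M fragments. MT2_Mm took 341 to 1082 fragments per M, with a median of 509, and then 222 to 679, with a median of 405, and 4 of the 24 4-cell blastomeres were above the highest 8-cell value. MERVL-int copies outnumbered MT2_Mm copies in 24 of 24 4-cell and in 25 of 26 8-cell blastomeres. The median ratio was 1.62 at the 4-cell stage and 2.64 at the 8-cell stage.

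Copy lengths separated long from short entries. Whether short entries belong to 1 longer element was not analysed, since only the chromosome of a copy is known here. A length could be found for 1084 of the 1254 MERVL-int copies, those with at least 5 values above 0. They were 72 to 5431 bases long with a median of 5296, and 579 of them (53.4%) had at least 5000 bases and are called near-complete here. That limit was chosen after the lengths were seen. MT2_Mm copies were shorter and more uniform. Of the 1565, 1081 had a length, with a median of 492 bases and a range of 33 to 622, and 333 of them were 493 bases long. The remaining 170 MERVL-int and 484 MT2_Mm copies were seen in under 5 blastomeres and held a median of at most 0.985% of a blastomere's fragments of their name.

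Near-complete copies were the most widely used members. In the 4-cell blastomeres 233 to 579 of the 579 were above 0, with a median of 529, and in the 8-cell blastomeres 33 to 558, with a median of 415. Both S18 and S20 had fragments on all 579. In S18 a near-complete copy had 1 to 2393 fragments with a median of 34, and 530 of the 579 had at least 10. In S52, the 8-cell blastomere with the most near-complete copies above 0, the median was 5 fragments and 147 copies had at least 10, against 156 in NA_e. In S24, the lowest of the 4-cell stage, 233 copies were above 0 and 17 of them had at least 10 fragments. Blastomeres of the same stage thus ran from 40.2% of the near-complete copies above 0 to all of them.

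The level of these copies spread widely between blastomeres, while their number cannot exceed 579. Near-complete copies together took 112 to 6830 fragments per M at the 4-cell stage, with a median of 686, and 24.8 to 427 at the 8-cell stage, with a median of 204. The 4-cell range ran from S24 to S18, with S20 at 4084 and S23 at 3086 fragments per M. The highest 8-cell value, in S52, was below the 4-cell median, and 14 of 24 4-cell blastomeres were above it. S18 held the highest 4-cell value of 258 of the 579 copies, and S18 and S20 together of 368.

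**Figure D3:**
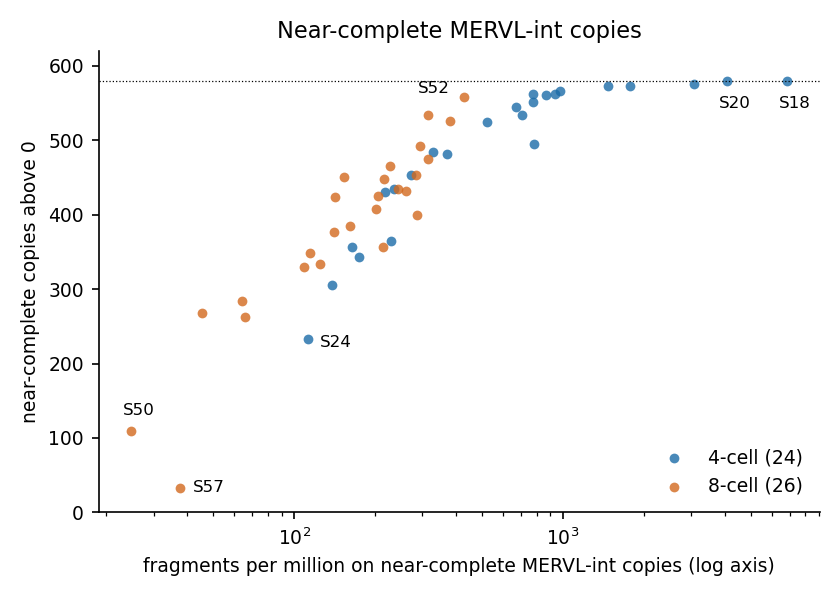
Near-complete MERVL-int copies above 0 in each blastomere against the fragments per M on them, on a log axis. Each point is 1 blastomere, the dotted line marks 579 copies, and 4-cell blastomeres S18 and S20 reach it at 6830 and 4084 fragments per M.

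Copy by copy, most members of both names had the higher mean level at the 4-cell stage, near-complete copies among them. The mean FPKM over the blastomeres of a stage had a median over the 579 copies of 0.195 at the 4-cell and of 0.0342 at the 8-cell stage, and it was higher at the 4-cell stage for 572 of them. The median ratio was 5.76, and 3.73 without S18 and S20. For the shorter MERVL-int copies 93.1% had the higher mean at the 4-cell stage and the median ratio was 6.31. For MT2_Mm copies of 480 to under 500 bases these were 89.5% and 5.16, and for the other MT2_Mm copies 88.5% and 5.64. Without S18 and S20 the ratios of these groups were, in the same order, 4.16, 3.78 and 4.28. Over the 87415 repeat copies with at least 5 values above 0 the median ratio was 1.38, and 58.3% had the higher mean at the 4-cell stage. Near-complete copies kept a similar order of level at the 2 stages, with a rank correlation of 0.76 across the 579, against 0.63 across the 87415 repeat copies. It was 0.59 for the shorter MERVL-int copies, 0.60 for MT2_Mm copies of 480 to under 500 bases and 0.59 for the other MT2_Mm copies. The copies share the same libraries, their length and how well reads can be placed on them, so this is a description.

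Each near-complete copy that was used in the most blastomeres was also far from evenly used. MERVL-int_dup86_chr14, of 5332 bases on chromosome 14, was above 0 in every blastomere. Its FPKM was 0.285 to 17.2 at the 4-cell stage, with a median of 2.09, and 0.156 to 1.42 at the 8-cell stage, with a median of 0.566. These are 15 to 887 fragments and 5 to 164 fragments. MERVL-int_dup120_chr2, of 5369 bases, was also above 0 throughout, at 0.189 to 10.2 FPKM and a median of 1.15, and then at 0.0713 to 0.785 and a median of 0.309. Both had their highest value in S18 and ranges that overlapped between the stages.

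The third copy above 0 everywhere, MERVL-int_dup79_chrX on the X chromosome, had medians of 0.502 and 0.196 FPKM. Its 8-cell values reached 3.10 in S61, where 258 fragments lay on it, while its next highest 8-cell value was 0.872 in S62. The other 5 of the 8 most widely used copies were near-complete too, on chromosomes 3, 4, 5, 6 and 15. Each was above 0 in all 24 4-cell and in 25 of 26 8-cell blastomeres, with 4-cell medians of 0.357 to 1.13 FPKM and 8-cell medians of 0.0887 to 0.319. All 8 had their highest 4-cell value in S18.

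Sharing between blastomeres was far above that of repeats at large. At the 4-cell stage 830 of the 1233 listed MERVL-int copies (67.3%) were above 0 in at least 12 of 24 blastomeres, against 7.21% of all listed repeat copies. At the 8-cell stage 614 of 1102 (55.7%) were above 0 in at least 13 of 26, against 4.59%. MT2_Mm copies reached this share in 345 of 1518 cases (22.7%) and in 86 of 1182 (7.28%), the second much closer to the background. IAP copies had 22.4% and 39.5%, and MT2A, MT2B and MT2C copies 9.68% and 6.77%.

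**Figure D4:**
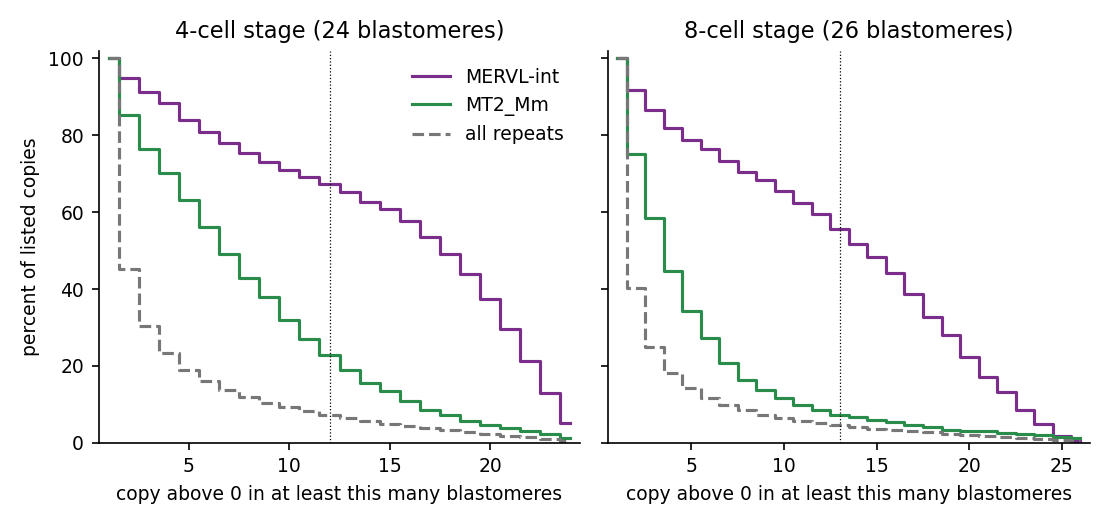
Percent of the listed copies that were above 0 in at least the number of blastomeres on the horizontal axis, at the 4-cell stage on the left and the 8-cell stage on the right. The dotted line marks 12 of 24 and 13 of 26 blastomeres, where MERVL-int is at 67.3% and 55.7%, MT2_Mm at 22.7% and 7.28% and all repeats (dashed) at 7.21% and 4.59%.

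Length went with this sharing. Near-complete MERVL-int copies were widely used, in this sense, in 569 of 579 cases at the 4-cell and 493 of 579 at the 8-cell stage. MERVL-int copies under 1000 bases were so in 76 and 11 of 237 cases. The part of length in these counts was not tested. On the FPKM scale, which is per length, the median of the mean level was 0.195 for near-complete copies, 0.112 for those of 1000 to 5000 bases and 0.153 for those under 1000 bases at the 4-cell stage, and 0.0342, 0.0251 and 0.0202 at the 8-cell stage.

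The widely used copies of the 8-cell stage were nearly all among those of the 4-cell stage. For MERVL-int, 610 copies were widely used at both, which is 73.5% of the 4-cell and 99.3% of the 8-cell set. For MT2_Mm, 85 copies were, which is 24.6% and 98.8%. For all repeat copies the shares were 58.3% and 77.9%. A pair of 4-cell blastomeres had in common a median of 92.8% of the MERVL-int copies of the one with fewer, over 276 pairs, and a pair of 8-cell blastomeres 77.5%, over 325 pairs. For MT2_Mm these medians were 63.3% and 43.5%, and for all repeat copies 42.7% and 37.5%.

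Copies seen at a stage can also be followed by the share of blastomeres that used them. Over all 1254 MERVL-int copies, 1146 (91.4%) were above 0 in a higher share of 4-cell than of 8-cell blastomeres, and over all 1565 MT2_Mm copies 1444 (92.3%). Over all 461206 repeat copies it was 50.3%, but 387300 of those were in under 6 blastomeres, against 199 MERVL-int and 557 MT2_Mm copies. A difference of at least 2-fold was looked for among copies above 0 in at least 6 of the 50 blastomeres, which 1055 MERVL-int and 1008 MT2_Mm copies met. Of the copies that met it, the share was higher at the 4-cell stage for 92.9% of MERVL-int, 94.3% of MT2_Mm, 86.5% of MT-type MaLR and 62.1% of all repeat copies.

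By that rule 644 MT2_Mm copies (63.9%) had the higher share at the 4-cell stage, against 29.4% of all repeat copies that met the rule. MERVL-int had 233 such copies (22.1%), which is not above the background. A copy that is in most 8-cell blastomeres cannot have a 2-fold higher share at the 4-cell stage. In the other direction 2 MERVL-int copies (0.190%) and 7 MT2_Mm copies (0.694%) had the higher share at the 8-cell stage, against 14.7% of all repeat copies. IAP had 61 copies one way and 1265 the other.

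The 3 MERVL-int copies that differed the most toward the 4-cell stage were of medium or full length and at low level. MERVL-int_dup2_chr9, of 1975 bases, was above 0 in 19 of 24 4-cell and in 3 of 26 8-cell blastomeres, with a highest value of 1.62 FPKM in S18. MERVL-int_dup127_chr1 and MERVL-int_dup125_chr2 were above 0 in 17 4-cell blastomeres each and in 2 8-cell blastomeres each. These values rest on few fragments, with a 4-cell median of 1 or 2 fragments in each of the 3 copies.

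Among LTR copies the largest differences were clearer in fragments. MT2_Mm_dup141_chr1, of 439 bases, was above 0 in 22 of 24 4-cell blastomeres, at 0 to 21.1 FPKM with a median of 2.93, and in 6 of 26 8-cell blastomeres, at 0 to 4.22 with a median of 0. It had 696 fragments over the 4-cell blastomeres and 78 over the 8-cell ones. MT2_Mm_dup32_chr3 was above 0 in 21 and 6 blastomeres, with 611 and 126 fragments. MT2_Mm_dup76_chr3 was above 0 in 19 and 2, with 238 and 8 fragments. The 8-cell range of each of the 3 lay within its 4-cell range.

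The 3 MERVL-int copies with the largest difference toward the 8-cell stage were of mixed length. MERVL-int_dup16_chr6, of 911 bases, was above 0 in 11 of 24 4-cell blastomeres, with 0 to 24.4 FPKM and a median of 0, and in 18 of 26 8-cell blastomeres, with 0 to 49.2 and a median of 10.1. It had 907 fragments at the 4-cell stage and 4632 at the 8-cell stage. The very short MERVL-int_dup84_chr5, of 110 bases, was above 0 in 4 and 14 blastomeres and reached 21.1 and 72.4 FPKM. MERVL-int_dup88_chr10 was above 0 in 7 and 12 blastomeres, with 39 and 42 fragments in all. Of these 42, 28 were in NA_d, and the 8-cell libraries were deeper. Of the 3 copies only MERVL-int_dup84_chr5 met the 2-fold rule.

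For MT2_Mm the copies with the largest difference toward the 8-cell stage were MT2_Mm_dup6_chr4, in 6 and 14 blastomeres, MT2_Mm_dup47_chr11, in 5 and 11, and MT2_Mm_dup106_chr12, in 6 and 12. They were low, with 10 and 23, 49 and 266, and 20 and 16 fragments at the 4-cell and 8-cell stage. The third had fewer fragments at the stage where it was seen in more blastomeres.

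A single shorter copy carried much of the MERVL-int signal of the 8-cell stage. MERVL-int_dup47_chr14, of 1741 bases on chromosome 14, was picked out after its values were seen. It held 10.2% of the 426237 MERVL-int fragments of the 4-cell blastomeres (95% Wilson interval 10.1% to 10.3%) and 34.1% of the 184320 of the 8-cell blastomeres (33.9% to 34.4%). In single blastomeres its share was 0% to 51.7% at the 4-cell stage, with a median of 8.52%, and 0.0560% to 74.1% at the 8-cell stage, with a median of 38.4%. The intervals treat the pooled fragments as independent draws. The reads carry no molecular identifiers, so the intervals cover neither amplification nor the spread between blastomeres.

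Its own level did not have a lower median at the 8-cell stage. The FPKM of MERVL-int_dup47_chr14 was 0 to 250 at the 4-cell stage, with a median of 57.1, and 0.0941 to 189 at the 8-cell stage, with a median of 65.6. It was above 10 in 20 of 24 and in 24 of 26 blastomeres. At 0 were S17, S19 and S20, where 3 fragments would have been 0.127, 0.116 and 0.130 FPKM. S20 thus had no fragment on this copy and fragments on all 579 near-complete ones. Across blastomeres the rank correlation of its fragments with those of near-complete copies was -0.16 (n = 24) and 0.25 (n = 26), a description over blastomeres that share libraries and embryos. Without this copy, MERVL-int took 157 to 8003 fragments per M at the 4-cell stage, with a median of 826, and 55.3 to 543 at the 8-cell stage, with a median of 295.

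The use of MERVL-int was more concentrated at the later stage. It took 88 copies to hold 50% of the MERVL-int fragments of the 4-cell blastomeres and 20 copies for those of the 8-cell blastomeres. For MT2_Mm it took 23 and 9 copies. These counts pool blastomeres of very unequal totals. Within single blastomeres the 10 highest MERVL-int copies held a median of 30.6% of the fragments at the 4-cell stage and 62.9% at the 8-cell stage. The MT2_Mm copy with the most fragments at the fitted lengths, MT2_Mm_dup53_chr11, held 4.60% (4.50% to 4.70%) and 9.33% (9.19% to 9.46%) of the MT2_Mm fragments. Its fitted length is uncertain, and with it these shares, which the intervals do not cover.

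A small set of LTR copies was above 0 everywhere. There were 12 MT2_Mm copies above 0 in every blastomere of both stages, against 3 MERVL-int copies. These are 0.767% and 0.239% of all copies of each name, and over all repeat copies it was 0.141%. The highest median FPKM, a level per length, among them was that of MT2_Mm_dup102_chr5 on chromosome 5. It had 69.6 to 714 FPKM at the 4-cell stage with a median of 368, and 278 to 694 at the 8-cell stage with a median of 370. MT2_Mm_dup53_chr11 had 27.02 to 186 FPKM with a median of 87.3 and 69.8 to 235 with a median of 153. Their fitted lengths, 68 and 260 bases, are uncertain, since neither copy had few fragments in any blastomere. The ranges of both copies overlapped between the stages, and the second had its lowest value at the 4-cell stage and its highest at the 8-cell stage.

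The next copies in this set were MT2_Mm_dup27_chr17, MT2_Mm_dup86_chr1, MT2_Mm_dup83_chr1, MT2_Mm_dup46_chr14, MT2_Mm_dup87_chr1 and MT2_Mm_dup75_chr6. Their 4-cell medians were 59.9, 45.4, 40.3, 21.2, 12.3 and 10.1 FPKM, and their 8-cell medians 60.7, 44.1, 43.7, 33.5, 17.1 and 18.9. Of these 6, MT2_Mm_dup86_chr1 alone had the lower median at the 8-cell stage.

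Together these 12 copies took 55.9 to 270 fragments per M at the 4-cell stage, with a median of 147, and 89.9 to 275 at the 8-cell stage, with a median of 172. All other MT2_Mm copies took 222 to 1015, with a median of 369, and then 132 to 404, with a median of 228. The 12 copies held a median of 30.7% of the MT2_Mm fragments of a 4-cell and 41.4% of those of an 8-cell blastomere. These sums rest on the fitted lengths, which are uncertain for MT2_Mm_dup102_chr5 and MT2_Mm_dup53_chr11. Copies that are not above 0 at a stage fall among the other copies by the choice of the 12, so the split does not locate the stage difference. The 12 were chosen after their values were seen, by their presence in all blastomeres, and their levels still spread widely, MT2_Mm_dup46_chr14 from 0.192 to 55.6 FPKM at the 4-cell stage.

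**Figure D5:**
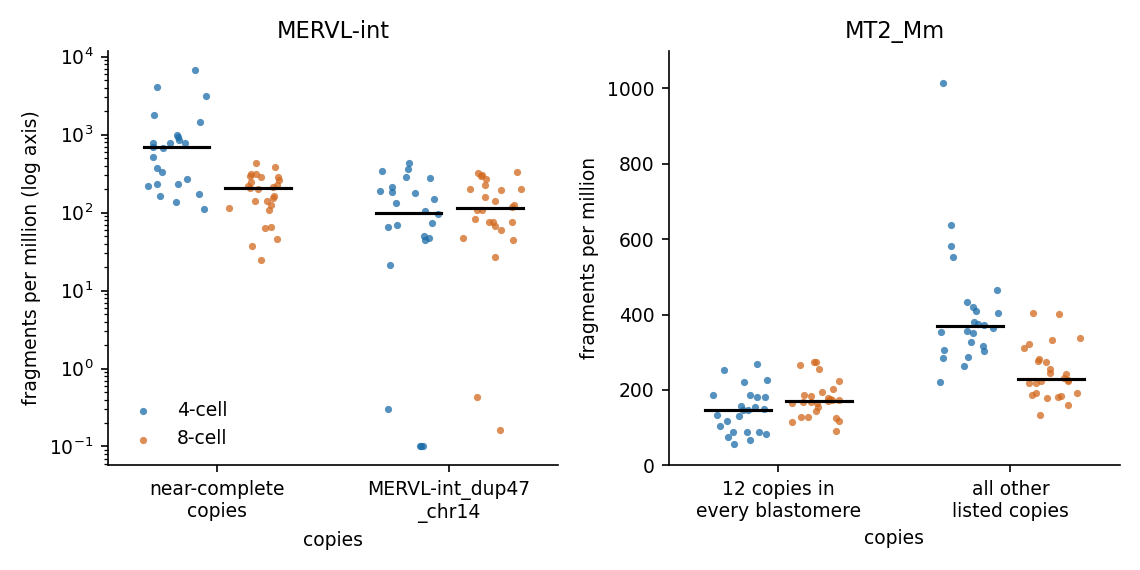
Fragments per M in each blastomere, on the left (log axis) for near-complete MERVL-int copies and MERVL-int_dup47_chr14, on the right for the 12 MT2_Mm copies above 0 in every blastomere and all other MT2_Mm copies. Points are blastomeres, blue at the 4-cell and orange at the 8-cell stage, black lines are medians, and the 3 values of 0 on the left are drawn at 0.1.

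The numbers of internal and LTR copies varied together at the 4-cell stage, and their fragments less clearly. The numbers of MERVL-int and MT2_Mm copies above 0 had a Pearson correlation of 0.90 (rank correlation 0.93) across 24 4-cell blastomeres, and of 0.47 (0.21) across 26 8-cell blastomeres. All MERVL-int and all MT2_Mm fragments per M were at 0.77 (0.34) and -0.54 (-0.49). Fragments on near-complete copies went with those on the other MT2_Mm copies at 0.91 (0.69) among 4-cell and -0.34 (-0.30) among 8-cell blastomeres, and with those on the 12 copies found everywhere at -0.45 (-0.56) and -0.48 (-0.52). Both counts come from the same library and depth, and columns were not assigned to embryos, so these are descriptions. MERVL-int fragments per M also went with fewer genes above FPKM 1 at the 4-cell stage, at -0.78 (-0.57), and at 0.22 (-0.04) at the 8-cell stage. The part of this in the result was not tested.

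The copies were spread over all chromosomes. Chromosome 1 had 94 MERVL-int and 137 MT2_Mm copies, which is 7.50% and 8.75% of each name against 6.34% of all listed repeat copies. The X chromosome had 85 and 95, which is 6.78% and 6.07% against 4.01%, and the Y chromosome 9 and 13, which is 0.718% and 0.831% against 0.152%. Of the MERVL-int copies on the X, 45 of 85 were widely used at the 4-cell stage (52.9%), the lowest share of any chromosome, and on chromosome 18 it was 26 of 30 (86.7%), the highest. These shares are of the copies listed at either stage, and over all repeat copies of either stage it was 4.13% on the X chromosome and 3.94% to 4.70% on the autosomes. Only the chromosome of a copy is known here, so distances to genes and between LTR and internal part were not analysed.

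Copies on the Y chromosome were above 0 also in blastomeres with Y genes near 0. The Y genes Ddx3y, Eif2s3y, Kdm5d and Uty summed to above FPKM 1 in 12 of 24 4-cell and in 12 of 26 8-cell blastomeres. MERVL-int copies of the Y were above 0 in all 24 4-cell and in 25 of 26 8-cell blastomeres, among them 12 and 13 in which the Y genes were not above 1. MT2_Mm copies of the Y were above 0 in 21 and 12, among them 11 and 7 of that kind. In the 4-cell blastomeres of that kind the Y gene sum reached at most 0.0857 FPKM. In these, MERVL-int_dup5_chrY had up to 174 fragments. How often a fragment was placed on the wrong one of several near-identical copies was not tested.

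Genes known to act on MERVL were looked at beside it. Of 31 genes of the 2-cell programme, 25 were listed, and Dux and Duxf3, the homeobox factor that binds MT2_Mm, were not. Only Dppa2 and Dppa4, DNA-binding factors upstream of Dux, were above FPKM 1 in every blastomere, with 4-cell medians of 579 and 537 and 8-cell medians of 461 and 426. Of the 22 genes listed in both tables, 10 had the higher median at the 4-cell stage and none at the 8-cell stage, with 12 equal. Of the 13604 genes that both stages list, 35.8% had the higher median at the 4-cell stage and 26.8% at the 8-cell stage, and 37.4% were equal.

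Most other genes of the programme were off in most blastomeres. Zscan4d, a 2-cell gene that protects telomeres, was above FPKM 1 in 6 of 24 4-cell and 2 of 26 8-cell blastomeres, and reached 60.7 in S21. Zfp352, a zinc finger gene of the 2-cell stage, was above 1 in 5 and 1 and reached 51.2 in S20. Spz1 was above 1 in 6 and 2, and Tdpoz4 in 23 and 19. Across the 24 4-cell blastomeres, the rank correlation with MERVL-int fragments per M was 0.62 for Zfp352, -0.74 for Dppa2 and -0.75 for Dppa4, chosen after the values were seen as the ends of a range over 25 genes with a median of -0.01. It was 0.34 for Zscan4d, 0.22 for Spz1 and 0.10 for Tdpoz4. Across the 26 8-cell blastomeres it was -0.15 for Zfp352, 0.31 for Dppa2 and -0.41 for Dppa4. The part that the low gene numbers of S18 and S20 have in the 4-cell values was not tested.

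Most silencers of MERVL were present in most blastomeres. All 34 genes of the list were listed, 10 were above FPKM 1 in every 4-cell and 11 in every 8-cell blastomere, and a blastomere had a median of 30.5 of them above FPKM 1 at the 4-cell and of 30 at the 8-cell stage. Of the 34, 19 (55.9%) had the higher median at the 4-cell stage and 13 (38.2%) at the 8-cell stage, against the 35.8% and 26.8% of all genes above. The other 2 (5.88%) were equal, against 37.4% of all genes, so the shares in both directions were higher than those of all genes. Trim28, the corepressor recruited by zinc finger proteins, had 8.12 to 165 FPKM with a median of 59.8 and then 25.6 to 280 with a median of 121. Setdb1, its histone methyltransferase, had medians of 6.14 and 8.32, and Kdm1a, a histone demethylase that silences MERVL, 12.3 and 16.2.

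Others had the lower median at the 8-cell stage. The maintenance DNA methyltransferase Dnmt1 had medians of 7.72 and 2.26 FPKM, Smchd1, a chromatin repressor, 11.03 and 2.84, and Chaf1a, a subunit of the CAF-1 histone chaperone, 8.29 and 5.01. The ranges of all 6 genes overlapped between the stages. Chaf1a was 0 to 51.3 at the 4-cell and 0 to 55.2 at the 8-cell stage, and its rank correlation with MERVL-int fragments per M was 0.63 (n = 24) and 0.58 (n = 26), the highest of the 34 genes at each stage and named for that after the values were seen. Over the 34 genes its median was -0.01 at the 4-cell stage, in a range of -0.69 to 0.63, and 0.11 at the 8-cell stage, in a range of -0.60 to 0.58.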

How the data were processed

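Single blastomeres were amplified by Smart-seq2, made into libraries with Nextera XT and sequenced as read pairs, without molecular identifiers. The authors aligned the reads to mm10 with STAR 2.5.1b, kept uniquely aligned ones and used HTSeq to count those on Refseq genes and on RepeatMasker repeats. They deposited FPKM values in a gene and a repeat table per stage. What unit the repeat values have is not given in the sources used here, and they were read as FPKM because the relative depths of the blastomeres in the repeat table equalled those in the gene table within 0.103%. Unique alignment leaves out fragments that fit several near-identical copies, so complete copies that resemble each other can be undercounted. The strand setting of the counting is not given in the sources used here, so sense and antisense RNA were not told apart.

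The FPKM denominator of each blastomere was estimated from genes with 1 curated transcript. A copy's length is the shortest at which all its values are whole numbers of fragments, within 0.08 fragments or 0.3%, for copies with at least 5 values above 0. For copies with fewer values the length is uncertain and enters only sums of fragments. It is also uncertain for copies with large fragment numbers in every blastomere, such as MT2_Mm_dup53_chr11, since 0.3% can then accept many lengths. The fragment numbers of such copies are uncertain with it. Lengths from each stage's table alone differed by at most 0.5% for 99.8% of 894 MERVL-int and 95.7% of 510 MT2_Mm copies with at least 4 values in each. M stands for 1000000 fragments. On simulated data the length came out within 0.5% for 99.5% of 187 MERVL-int and 100% of 174 MT2_Mm copies. The simulation took the fitted lengths as true, so it cannot show whether the fitted lengths themselves are right.

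Python 3.11.15, pandas 2.3.3 and numpy 2.4.6 were used. No column was given to a single sample, since no column name gives one, so no test was run. The 5 columns named NA were told apart by a letter (NA_a to NA_e). The named copies are the 8 of each name above 0 in the most blastomeres and the 3 with the largest stage difference in each direction. Members, gene lists and rules were chosen with earlier results of these data known. The alternatives were other thresholds, denominators and folds, columns left out, and 1 blastomere left out at a time. Positions and sequences of the copies, the lineages A and B, and embryos of 5 or 6 cells were not analysed here.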

Additional observations from a re-analysis of the deposited data

How the results depend on the processing

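Apart from 300 values that leave out 1 blastomere each, 95 values were computed under an alternative, of which 70 stayed close to the reported one and 25 moved. Close means within 1 standard deviation between blastomeres, or within 1.5-fold for numbers of copies or genes that met a rule. A turn of direction was looked for only in the ratios of the stage medians, and 0 of these turned. Leaving out 1 blastomere at a time, the ratio of the 4-cell to the 8-cell median stayed between 1.32 and 1.36 for MERVL-int copies, 1.25 and 1.25 for their share, 2.21 and 2.61 for their fragments per M, 1.89 and 2.22 for MT2_Mm copies, 1.60 and 1.66 for their share and 1.24 and 1.27 for their fragments per M. With values above 0.1 the MERVL-int medians were 367.5 and 87 copies, with ratios of 4.22 for copies and 3.26 for the share. With values above 1 they were 41.5 and 14 copies and 0.113% and 0.0601% of all copies, with ratios of 2.96 and 1.89, and for MT2_Mm 124 and 67 copies and, at the 8-cell stage, 0.298%. A near-complete copy passes a threshold only with several fragments, by construction. As a share of the summed repeat value, the medians were 0.0264% and 0.0153% for MERVL-int, and 0.120% for MT2_Mm at the 8-cell stage. At least 25% of the blastomeres used 853 and 245 MT2_Mm copies (56.2% and 20.7%, against 15.98% and 9.83% of all repeat copies). A 1.5-fold difference gave 412 MERVL-int copies higher at the 4-cell stage (39.1%, against 39.8% of all repeat copies) and 6 at the 8-cell stage, and 18 MT2_Mm copies at the 8-cell stage (0.569% and 1.79%, against 22.7%). Without the columns named NA, 1 MERVL-int and 4 MT2_Mm copies were higher at the 8-cell stage (0.0959% and 0.409%, against 11.99% of all repeat copies), and without S18 and S20 there were 5 MERVL-int copies (0.497%, against 14.5%). With a threshold of FPKM 5, 4 genes of the 2-cell programme were above it in at least 12 of 24 4-cell blastomeres, against 7 at FPKM 1. In blastomeres of 12 to 16 M fragments only, the ratios were 1.57 for MERVL-int copies, 2.96 for MT2_Mm copies and 1.55 for MERVL-int fragments per M. The removal of S18 and S20, the higher thresholds for the ratios, the depth window, the thinning and the removal of MERVL-int_dup47_chr14 were chosen after seeing the data. From the names alone, no paired analysis was possible because no column name gives an embryo or a replicate number. Whether the sequencing depth of a column could place it in an embryo was not tested. The distance between MT2_Mm and MERVL-int copies was not run, since only the chromosome of a copy is known here. Many values of single copies rest on few fragments. The median was 2 for a used MT2_Mm copy at both stages, and 3.5 and 2 for a used MERVL-int copy. The part of depth in this was not tested.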
